A study of Mus musculus with 8 samples.

Results

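Interferon-stimulated genes are the genes a cell switches on when interferon reaches its surface. Here 35 of them, listed by symbol, were followed in the subcutaneous fat of diabetic mice. Each gene was read from the brightest probe set that names only that gene, and 33 of the 35 had one, among 18193 named genes on the array. Isg15, the ubiquitin-like modifier of this response, shares its only listed probe set with another gene, and Ifi44 was not named in the annotation used, so no value is given for either. Of the 33, 31 lay above the brightness filter and were tested, and the GTPase genes Mx1 and Mx2 lay below it.

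The samples were subcutaneous fat of 8 male mice given as 8 weeks old, from a series on diabetic mice, with 1 Affymetrix mouse genome array per mouse. The 4 placebo mice (numbered 6, 8, 10 and 14) were gavaged with water alone, and the 4 NBC mice (13, 11, 9 and 5) with niacin-bound chromium in water at 10 mg per kg body weight. Both groups were treated for 10 weeks on 5 days a week, so the stated 8 weeks cannot be the age after treatment. The strain behind the diabetes is not given in the sources used here. Values in single mice are given below in these 2 orders. The signal is a brightness in arbitrary units on a linear scale, and it is not compared between genes.

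Type I interferons (alpha and beta) signal through the receptor pair Ifnar1 and Ifnar2 and the kinases JAK1 and TYK2. STAT2 and IRF9 then act at the interferon-stimulated response element (ISRE) in the promoters of target genes. Interferon gamma signals through Ifngr1 and Ifngr2 to the gamma-activated site (GAS), and it induces IRF1 among its early targets. The products sense foreign nucleic acid, block translation and viral budding, and feed peptides to MHC class I. In fat, both adipocytes and the resident immune cells can respond to interferon.

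The 2 elements can be read in the promoters of several members, which are shown so that these elements can be seen beside the values of the genes. RefSeq promoter windows (GRCm38.p6, 250 bases before to 50 bases after a transcription start) were listed for 27 of the 35 genes. Both strands were searched for the ISRE core (GAAA, 2 bases of any kind, GAAA) and the palindromic GAS core TTCNNNGAA (N for any base), allowing matches to overlap. The ISRE core stood in a window of 14 of the 27 genes and of 3.99% of all 27025 genes in the table (3.44% of the 32851 windows). The GAS core stood in 9 of the 27, against 9.55% of all genes (8.30% of windows), and Bst2, Eif2ak2, Ifitm3 and Oas1a held both. Capitals in the sequences below mark these matches, on either strand, and only bases before the start are printed, 5′ to 3′ on the gene's strand.
Oas1a: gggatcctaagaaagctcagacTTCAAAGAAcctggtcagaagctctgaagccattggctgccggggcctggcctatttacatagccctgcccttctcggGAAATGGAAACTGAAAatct
Irf8: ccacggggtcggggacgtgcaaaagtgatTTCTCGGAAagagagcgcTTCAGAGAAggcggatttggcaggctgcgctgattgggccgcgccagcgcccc
Irf1: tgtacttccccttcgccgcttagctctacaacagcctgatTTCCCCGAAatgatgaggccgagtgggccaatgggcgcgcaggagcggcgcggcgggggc
Ifit1: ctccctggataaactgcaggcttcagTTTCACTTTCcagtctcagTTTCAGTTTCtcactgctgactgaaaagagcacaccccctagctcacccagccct
Ifit3: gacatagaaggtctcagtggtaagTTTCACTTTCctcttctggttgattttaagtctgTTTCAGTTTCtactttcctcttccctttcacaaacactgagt
Bst2: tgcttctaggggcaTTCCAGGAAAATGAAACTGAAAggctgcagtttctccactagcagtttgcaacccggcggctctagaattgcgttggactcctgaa

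These stretches lie at chr5:120907526-120907645 (Oas1a, minus strand), chr8:120736158-120736257 (Irf8, plus), chr11:53769884-53769983 (Irf1, plus), chr19:34640759-34640858 (Ifit1, plus), chr19:34583349-34583448 (Ifit3, plus) and chr8:71537523-71537622 (Bst2, minus). In Oas1a the overlapping ISRE cores begin 20 and 14 bases before the start and the GAS core 98 bases before it. Ifit1 holds 2 separate ISRE cores, at 104 and 85 bases before the start, and Ifit3 holds 2 at 156 and 122, all on the opposite strand. Irf8 and Irf1 show GAS cores alone, at 171 and 153 bases before the start in Irf8 and at 90 in Irf1. In Bst2 the GAS core at 136 bases shares 3 letters with the first of 2 overlapping ISRE cores.

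Some arrays stood apart in other genes, and whether this affected the values of the members was not tested. Of 13 skeletal muscle markers, 12 were higher in NBC mice 13, 11 and 5 than in NBC mouse 9 and all placebo mice, the exception being Mb. The scores of T and NK cell and of B cell markers were lowest in NBC mice 13 and 11. The fat label fitted its markers, with 10 of 12 adipocyte markers measured and all 10 above the filter, and the adiponectin gene Adipoq at 85821 to 108996 in placebo and 83886 to 103846 in NBC mice. Of these 10, 9 lay below 0 in log2 difference (NBC minus placebo, median -0.0525), as did 9363 of 18193 named genes. Only Lipe did so without overlap between the groups. In bulk tissue, fewer cells of a type and less RNA per cell cannot be told apart.

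The comparison of NBC with placebo mice showed no difference in this gene set that passed the test. With limma and Benjamini-Hochberg adjustment over 22519 probe sets, 0 of 31 members passed (smallest adjusted p = 0.718), against 0.0% of all probe sets. At an unadjusted p under 0.05 there were 3 of 31 members (9.68%), against 6.22% of all probe sets. Over the 11662 named genes above the filter, each read from 1 probe set like the members, the share was 5.44%. All 3 lay higher in NBC mice, and at this level 3.28% of probe sets lay higher and 2.94% lower. They were Dhx58, Oas1a and Irf8. The values of the groups did not overlap for 3 of 33 members, with Dhx58 and Irf8 higher (1.61% of named genes) and Ifit2 lower (1.93%).

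As a description of direction, 23 of the 33 members lay above 0 in log2 difference (always NBC minus placebo here), as did 48.5% of all named genes. The median difference over the members was 0.128 and ranged from -0.54 (Stat2) to 0.64 (Mx1), beside a median of -0.0082 over all named genes. Single mice moved these values in both directions. Without NBC mouse 13, 29 of 33 lay above 0 with a median of 0.226, and without NBC mouse 5, 20 lay above 0 with a median of 0.0649. Without NBC mouse 9 the median was 0.0716, and with all probe sets of a gene averaged it was 0.0693. The 95% intervals of the 31 tested members had a median width of 0.40 to either side. For 29 of them the whole interval lay within a log2 difference of 1 in either direction. The exceptions were Stat2, down to -1.42, and Oas2, up to 1.13.

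**Figure D1:**
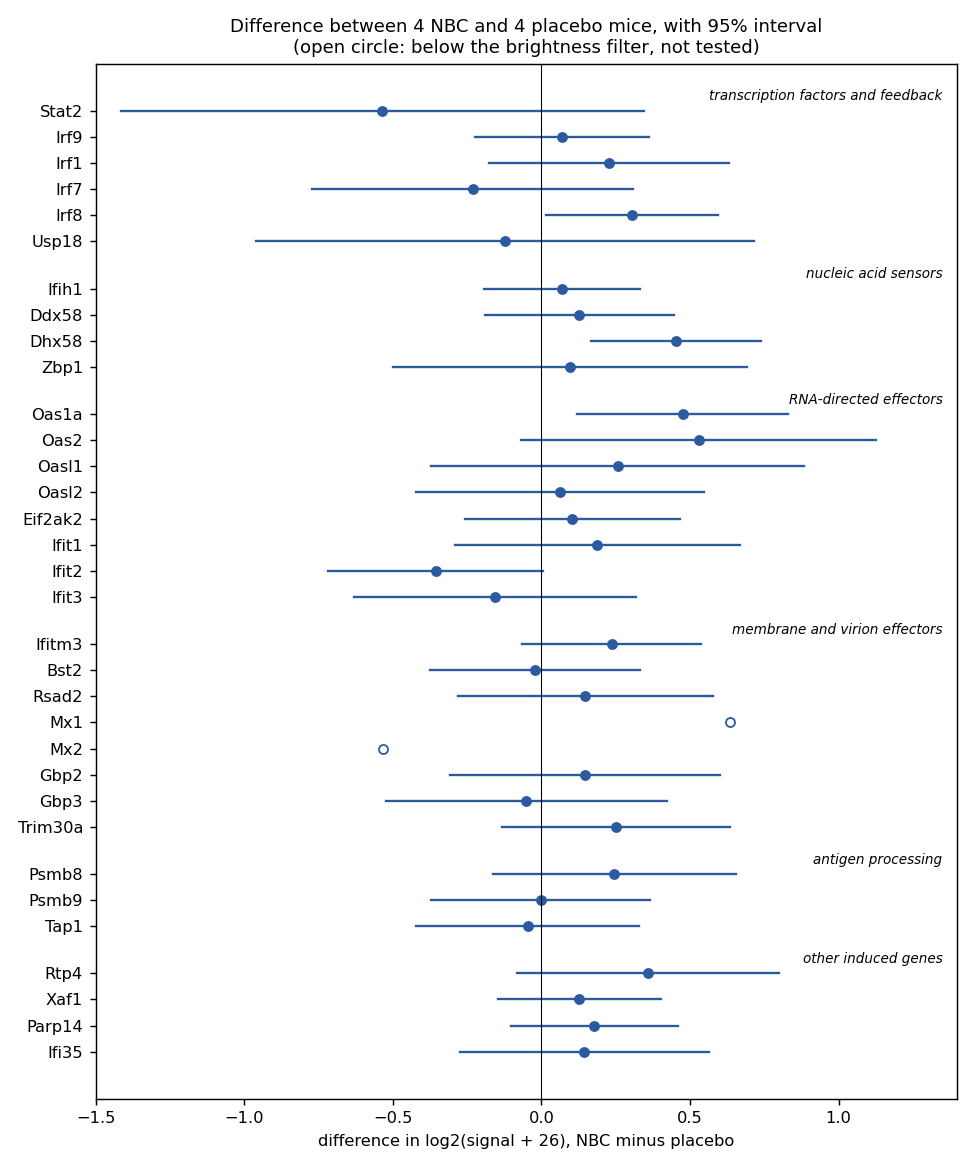
The x axis gives the difference in log2(signal + 26) between 4 NBC and 4 placebo mice for each of 33 members, grouped by role, with the 95% interval of the limma fit as a bar. Only the intervals of Dhx58, Oas1a and Irf8 leave out 0, all above it, before any adjustment for the number of probe sets, and the open circles (Mx1 and Mx2) were not tested.

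A score per mouse, the mean over the 33 members of each gene's log2 value minus its mean over the 8 mice, was -0.212, 0.102, -0.0273 and -0.0669 in the placebo mice. In the NBC mice it was -0.144, 0.0375, 0.166 and 0.145. The groups overlapped, since NBC mouse 13 lay below 3 placebo mice and placebo mouse 8 above NBC mice 13 and 11. The group means were -0.0512 ± 0.129 and 0.0512 ± 0.142 (SD, n = 4 each), so the gap of 0.102 was smaller than the SD within either group. NBC mouse 5 held the highest value of 13 members and NBC mouse 9 that of 10, while NBC mouse 13 held the lowest value of 12. Placebo mouse 8 was highest for 6 members, and placebo mice 6 and 10 were each lowest for 6.

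**Figure D2:**
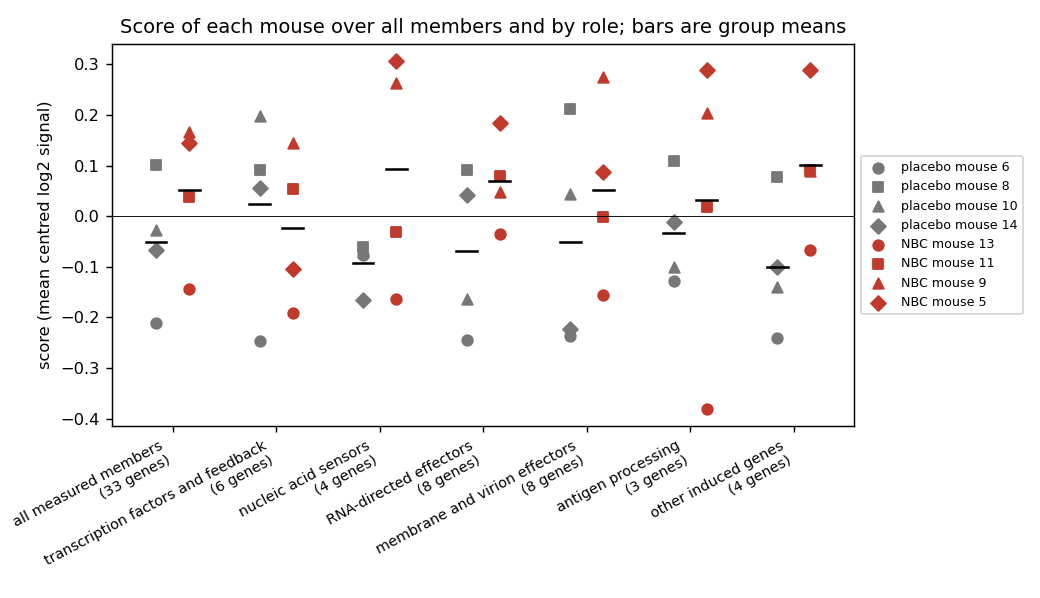
Each point is the score of 1 mouse (y axis, mean centred log2 signal) over all members and over each role, with placebo in grey, NBC in red and group means as bars. The groups overlap in all 7 columns, and NBC mouse 13 lies lowest of all mice in antigen processing at -0.380.

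**Figure D3:**
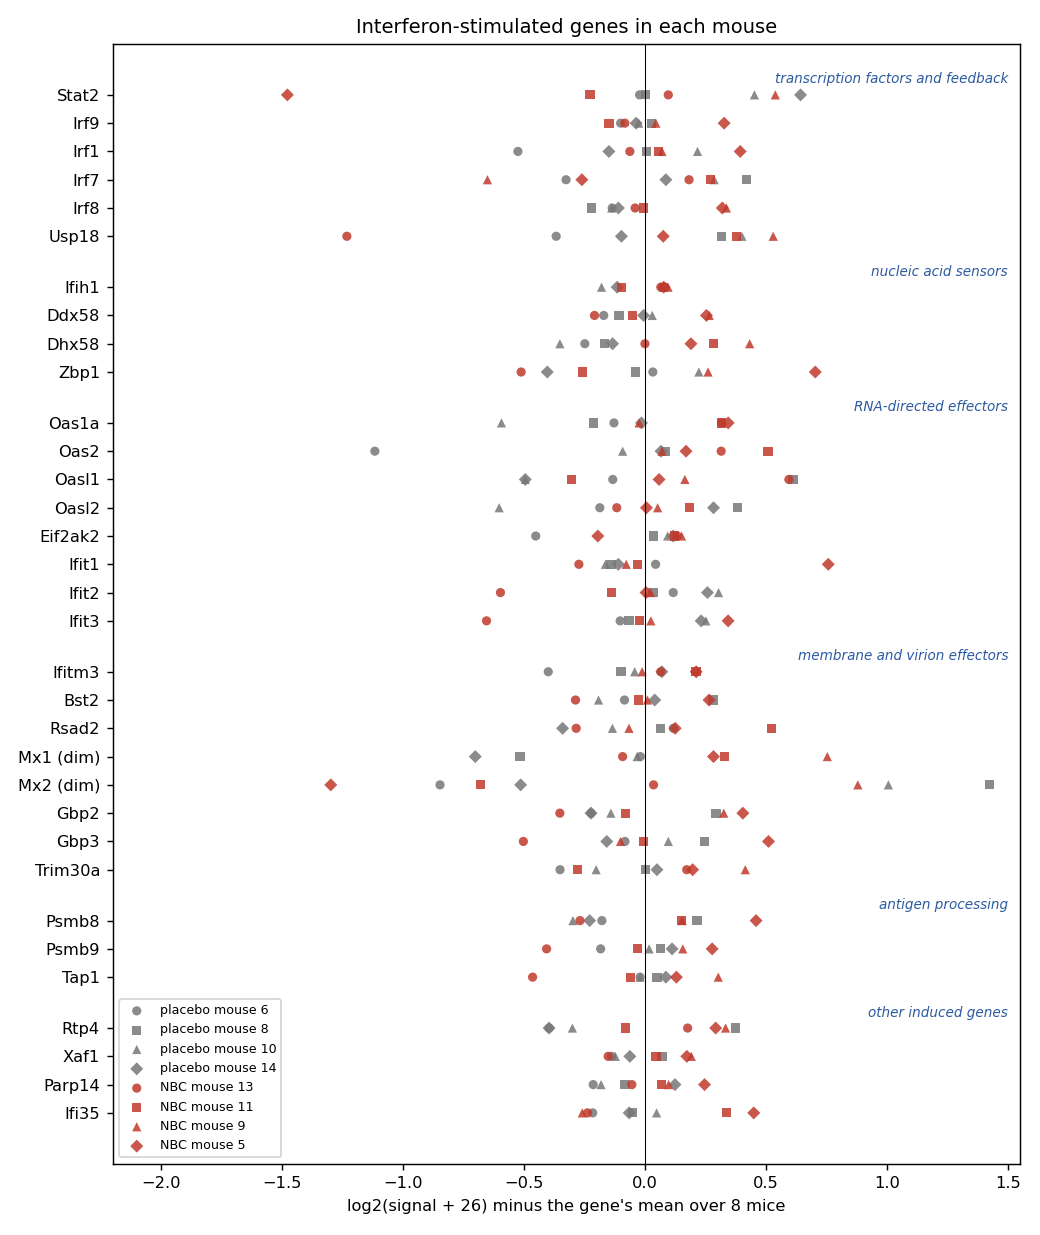
Each row is 1 member and each point 1 mouse, placed on the x axis by its log2(signal + 26) minus the gene's mean over the 8 mice. The red NBC points lie to the right of all grey placebo points only for Dhx58 and Irf8, and to the left only for Ifit2.

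Among the transcription factors and the feedback gene of the pathway, 3 of 6 lay above 0 and 3 below. Irf8, which directs myeloid and B cell development and is induced by interferon gamma, read 3904, 3677, 3898 and 3974 in placebo and 4171, 4271, 5425 and 5361 in NBC mice. Every NBC mouse lay above every placebo mouse, with mice 9 and 5 well above mice 13 and 11. Placebo mice averaged 3863 ± 129 and NBC mice 4807 ± 678 (SD, n = 4 each). The log2 difference was 0.30 (SE 0.13, limma unadjusted p = 0.0418, adjusted p = 0.778). With the dim probe sets kept in the fit, the unadjusted p was 0.0831. Its second probe set above the filter differed by 0.50 (SE 0.36) with overlap, and there NBC mouse 5 read 6536 beside 1757 to 3331 in the other NBC mice.

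Stat2 and Irf9, which act together at the ISRE, showed no common direction. Stat2 read 336, 342, 477 and 548 in placebo and 367, 288, 508 and 106 in NBC mice. The low mean in NBC mice came from mouse 5, and the other 3 lay within or close to the placebo range (log2 difference -0.54, SE 0.39, and -0.133 without mouse 5). The second Stat2 probe set differed by 0.026 (SE 0.29). Irf9 read 1142, 1250, 1204 and 1195 in placebo and 1156, 1104, 1266 and 1545 in NBC mice. These ranges overlapped, at a log2 difference of 0.069 (SE 0.13).

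Irf1, an early target of interferon gamma, read 1979, 2870, 3328 and 2576 in placebo and 2737, 2972, 3003 and 3764 in NBC mice. The ranges overlapped, with placebo mouse 6 lowest and NBC mouse 5 highest (log2 difference 0.23, SE 0.18). It was 0.09 without the former and 0.134 without the latter. Irf7, which drives interferon alpha genes and is itself induced by interferon, read 708, 1204, 1096 and 951 in placebo and 1018, 1083, 560 and 742 in NBC mice. Here the 2 NBC mice with the highest overall scores, 9 and 5, stood low (log2 difference -0.23, SE 0.24), and without mouse 9 the difference was -0.053. Usp18, the protease that removes ISG15 and blocks the receptor, read 300, 497, 529 and 367 in placebo and 153, 521, 581 and 417 in NBC mice. Its difference of -0.12 (SE 0.37) rested on NBC mouse 13 and was 0.266 without that mouse.

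All 4 nucleic acid sensors lay above 0. Dhx58 encodes LGP2, a regulator of the RNA sensors RIG-I and MDA5, and had the smallest p among the members (rank 88 of 11662 genes above the filter). It read 554, 588, 514 and 602 in placebo and 663, 812, 904 and 760 in NBC mice. No NBC mouse reached down to the placebo range. The means were 564 ± 39.4 and 785 ± 101 (SD, n = 4 each). On the log2 scale they lay 0.45 apart (SE 0.13, 95% interval 0.17 to 0.74, limma unadjusted p = 0.00607, adjusted p = 0.718). Its other 2 probe sets were dim, below the filter. They differed by 0.38 (SE 0.35) and -0.997 (SE 0.59), both with overlap, so the mean of all 3 probe sets gave -0.054.

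The remaining sensors differed by less. Ddx58 (RIG-I) differed by 0.13 (SE 0.14), with NBC mice 9 and 5 at 1944 and 1928 above the placebo range of 1430 to 1647 and NBC mouse 13 at 1392 below it. Its second probe set above the filter gave 0.38 (SE 0.22). Ifih1 (MDA5) differed by 0.069 (SE 0.12) and Zbp1, which binds Z-form nucleic acid, by 0.096 (SE 0.26).

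Of the 8 effectors that act on RNA or translation, 6 lay above 0. Oas1a makes the 2′-5′ oligoadenylates that switch on RNase L. It read 1390, 1309, 1000 and 1506 in placebo and 1901, 1902, 1496 and 1938 in NBC mice. NBC mice 13, 11 and 5 stood close together above all placebo mice, while NBC mouse 9 fell just under placebo mouse 14. The log2 difference was 0.48 (SE 0.16, 95% interval 0.12 to 0.83, limma unadjusted p = 0.0142, adjusted p = 0.730). The order of the NBC mice thus differed from that of Dhx58, where mouse 9 was highest. NBC mice 13, 11 and 5 also had high skeletal muscle scores (2.19, 2.50 and 2.41, against -0.842 in mouse 9). The part of muscle in the Oas1a values was not tested.

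Oas2, a larger synthetase of the same family, read 152, 383, 336 and 378 in placebo and 454, 523, 379 and 408 in NBC mice. NBC mouse 9 and placebo mouse 8 made the only crossing, by 379 against 383, and placebo mouse 6 stood far below the rest (log2 difference 0.53, SE 0.26, and 0.246 without that mouse). The OAS-like genes Oasl1 and Oasl2 differed by 0.26 (SE 0.28) and 0.062 (SE 0.21). Eif2ak2, which encodes the translation-blocking kinase PKR, differed by 0.10 (SE 0.16) in its brightest probe set and by 0.14 and 0.0079 in the other 2.

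The IFIT genes, whose products bind foreign RNA, went in different directions although they are neighbours on chromosome 19. Ifit2 read 1401, 1321, 1599 and 1548 in placebo and 844, 1170, 1311 and 1294 in NBC mice. All NBC mice lay below all placebo mice, by a narrow margin between NBC mouse 9 and placebo mouse 8. The log2 difference was -0.36 (SE 0.16, 95% interval -0.72 to 0.0064, limma unadjusted p = 0.0534, adjusted p = 0.778). Without NBC mouse 13, the lowest, it was -0.215, and after quantile normalization the groups overlapped. Ifit1 read 557, 487, 479 and 498 in placebo and 442, 527, 510 and 930 in NBC mice, where mouse 5 lay far above the placebo range and mouse 13 below it. Its difference of 0.19 (SE 0.21) was -0.034 without NBC mouse 5. Ifit3, with ISRE cores like those of Ifit1 in the printed promoters, differed by -0.16 (SE 0.21), and NBC mice 13 (849) and 5 (1722) were its lowest and highest values. No test of one IFIT gene against another was made.

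Of the 8 effectors at membranes and on virions, 5 lay above 0. Ifitm3, which hinders viral fusion with the endosome, read 17551, 21629, 22488 and 24310 in placebo and 24232, 26809, 22972 and 26826 in NBC mice. NBC mice 11 and 5 exceeded all placebo mice, and the other 2 lay below placebo mouse 14 (log2 difference 0.24, SE 0.13). Trim30a, a TRIM family gene, read 1974, 2528, 2192 and 2614 in placebo and 2849, 2078, 3374 and 2898 in NBC mice. Only NBC mouse 11 lay within the placebo range (log2 difference 0.25, SE 0.17), and the second probe set gave 0.27 (SE 0.15). Its probe sets were not checked against the related Trim30 genes, which could share signal.

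Bst2, which encodes tetherin and holds enveloped virions at the cell surface, differed by -0.021 (SE 0.16). Rsad2, the gene of viperin, differed by 0.15 (SE 0.19), with 0.18 and 0.11 in its other 2 probe sets above the filter. The guanylate-binding protein genes Gbp2 and Gbp3 differed by 0.15 (SE 0.20) and -0.050 (SE 0.21). For both of these NBC mouse 13 was the lowest of all mice and NBC mouse 5 the highest.

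Mx1 and Mx2 encode dynamin-like GTPases that trap viral nucleoproteins, and both are defective in many inbred laboratory strains. Mx1 read 197, 132, 195 and 113 in placebo and 186, 258, 355 and 249 in NBC mice. NBC mice 11, 9 and 5 lay above the placebo range and mouse 13 within it. Its log2 difference of 0.64 was the largest upward one of the list, at signals around or below the filter limit of 275. Fitted without the filter it had a limma unadjusted p of 0.0317 and an adjusted p of 0.919. Mx2 ranged from 30.2 to 245 in placebo and from 15.1 to 160 in NBC mice. It differed by -0.53 on the log2 scale, with an SE of 0.64 in the same fit.

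The 3 antigen processing genes gave 1 difference above 0 and 2 just below it. Psmb8, a catalytic subunit of the immunoproteasome, read 3657, 4811, 3364 and 3530 in placebo and 3433, 4595, 4609 and 5702 in NBC mice. The ranges overlapped widely (log2 difference 0.25, SE 0.18), and a second, dimmer probe set gave -0.31 (SE 0.38). Psmb9, another catalytic subunit, differed by -0.003 (SE 0.16), and Tap1, the peptide transporter of the endoplasmic reticulum, by -0.047 (SE 0.17). The spread among NBC mice was wide. Psmb9 read 2034 in mouse 13 and 3284 in mouse 5, beside 2379 to 2925 in placebo mice. Tap1 ran from 712 in mouse 13 to 1230 in mouse 9, beside 978 to 1055. The NBC score of this role had an SD of 0.297, against 0.107 in placebo mice (n = 4 each). The score of the nucleic acid sensors also spread more in NBC mice (SD 0.228 against 0.0483). The scores of the transcription factors, RNA-directed effectors and membrane effectors spread less in NBC than in placebo mice.

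The other 4 measured genes all lay above 0. Rtp4, which encodes an interferon-induced chaperone of membrane receptors, read 1146, 1975, 1227 and 1146 in placebo and 1717, 1433, 1917 and 1863 in NBC mice. All NBC mice lay above 3 of the placebo mice, and placebo mouse 8 lay above all NBC mice (log2 difference 0.36, SE 0.19). Without placebo mouse 8 the difference was 0.545, with a limma unadjusted p of 0.00558 and an adjusted p of 0.973. It ranged from 0.287 to 0.447 with any other single mouse left out, at unadjusted p of 0.0637 or more. Parp14, an ADP-ribosyltransferase, read 1595, 1750, 1632 and 2023 in placebo and 1785, 1946, 1986 and 2204 in NBC mice, where placebo mouse 14 made the overlap (0.18, SE 0.12). Xaf1, a gene linked to apoptosis, read 5044, 5830, 5098 and 5316 in placebo and 4994, 5730, 6344 and 6263 in NBC mice, with mice 9 and 5 above all placebo mice (0.13, SE 0.12). Ifi35 differed by 0.14 (SE 0.19), and NBC mice 11 and 5 read 23698 and 25612 while mice 13 and 9 read 15895 and 15661.

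The differences were also set beside the promoter content. The 13 measured members with an ISRE core had a median log2 difference of 0.128 and 9 above 0, and the 12 without one had 0.0983 and 8 above 0. The 9 with a GAS core had a median of 0.227 and 7 above 0, and the 16 without one had 0.0692 and 10 above 0. The 8 members with no window in the table (among them Dhx58, Oas2, Rtp4 and Mx1) had 0.269 and 6 above 0. These groups were not tested against each other, and a missing match says only that these letters are not in the window.

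Probe sets of 1 gene did not always agree in direction. More than 1 probe set was listed for 15 of the 33 members, and 11 had more than 1 above the filter. In 6 of these (Gbp2, Ifi35, Parp14, Psmb8, Stat2 and Xaf1) a further probe set lay on the other side of 0 from the brightest one, and in each of these 6 the SE of the further one exceeded its difference. Irf8, Ddx58, Trim30a, Rsad2 and Eif2ak2 had all such probe sets above 0.

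**Figure D4:**
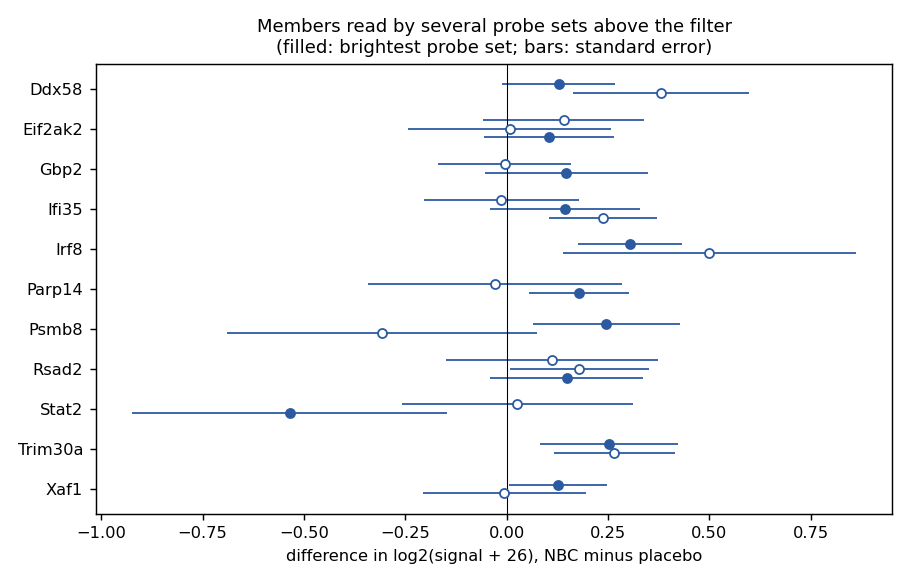
For each of 11 members with several probe sets above the filter, the x axis gives the difference in log2(signal + 26), NBC minus placebo, with its standard error. The filled point is the brightest probe set, and Stat2 shows the widest disagreement, at -0.54 against 0.026.

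Upstream of these genes, the interferons themselves were dim. Of 12 ligands and receptors, the 6 ligand genes (Ifnb1, Ifng, Ifna1, Ifna2, Ifna4 and Ifna11) and Ifnlr1 lay below the filter, and none of the 5 others had an unadjusted p under 0.05. Ifngr1, the ligand-binding chain of the interferon gamma receptor, differed by -0.22 (SE 0.12). Among 13 signal transducers and regulators above the filter, 2 lay higher at this level and 0 lower. That is 15.4%, against 6.22% of all probe sets and 5.44% of named genes above the filter. The score over the 14 measured genes of this list was -0.0344, -0.0446, -0.300 and -0.0465 in placebo and 0.153, 0.0485, 0.049 and 0.175 in NBC mice. Here the groups did not overlap, and the median log2 difference was 0.14. This score includes Socs1, below the filter, at 176, 40.2, 15.9 and 55.2 in placebo and 115, 168, 48.9 and 142 in NBC mice. The lack of overlap in the score depended on this dim gene. Socs3, a suppressor of cytokine receptors, read 1152, 1881, 1126 and 1307 in placebo and 2007, 2209, 1996 and 3119 in NBC mice, without overlap (log2 difference 0.77, SE 0.21, limma adjusted p = 0.718). Ptpn2, a phosphatase that acts on JAK1, read 5693, 5326, 5376 and 5203 in placebo and 6030, 7133, 6337 and 7750 in NBC mice, also without overlap (0.33, SE 0.12, limma adjusted p = 0.767).

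Among 12 sensors and adaptors outside the 35 genes, 2 lay higher at an unadjusted p under 0.05 and 0 lower. That is 16.7%, against 5.44% of named genes above the filter. Trim25, the ubiquitin ligase that activates RIG-I, differed by 0.45 (SE 0.15) and the Toll-like receptor adaptor Myd88 by 0.33 (SE 0.12), both without overlap (limma adjusted p = 0.730 and 0.778). Of 47 other interferon-induced genes above the filter, 2 lay higher and 0 lower (4.26%, against the same 5.44% and 6.22% of all probe sets). These were Uba7, the activating enzyme of ISG15 (0.39, SE 0.14), and Slfn2 of the Schlafen family (0.52, SE 0.22), with limma adjusted p = 0.744 and 0.778. The median over all 50 measured genes of that list was 0.0914, with 33 above 0.

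Markers of immune cells varied among the NBC mice beside the members. The T cell receptor component Cd3d read 1127, 608, 717 and 696 in placebo and 26.1, 24.9, 1350 and 2247 in NBC mice. The B cell receptor component Cd79b read 1430, 1074, 778 and 1056 in placebo and 32.1, 186, 1412 and 2081. Both were below all placebo mice in NBC mice 13 and 11 and above or near the top of the placebo range in mice 9 and 5. The summed signal of 10 T and NK cell markers (7 above the filter) was 4111 to 5504 in placebo and 2350 to 8762 in NBC mice. That of 7 B cell markers (6 above the filter) was 6758 to 17366 and 1877 to 10011. Jchain alone made up 12523 of the highest placebo sum, in mouse 6, and read 1162 to 3890 in NBC mice. Not every marker followed the pattern of Cd3d and Cd79b. Both NBC mice 13 and 11 lay below all placebo mice for 5 of 10 T and NK cell markers (Cd3d, Cd3g, Cd2, Cd8a and Nkg7) and for 6 of 7 B cell markers, all but Pax5. The granzyme gene Gzmb, below the filter, read 282, 187, 180 and 222 in the NBC mice, all above the placebo range of 26.9 to 148. Gzma (1191) and Cd4 (427) were above all placebo mice in NBC mouse 11. Pax5 read 435 in NBC mouse 13, within the placebo range of 120 to 447. No marker of these lists was listed at 0.

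In the NBC mice the antigen processing score (-0.380, 0.0191, 0.204 and 0.288) stood in the same order as the T and NK cell score (-1.03, -0.490, 0.439 and 0.667). The nucleic acid sensor score had this order too (-0.164, -0.0318, 0.263 and 0.306), and the remaining roles did not. In the placebo mice these orders differed, and the B cell score was lower in NBC mouse 11 than in mouse 13. The score over all 33 members was likewise higher in mice 9 and 5 than in 13 and 11. The part of lymphocytes in these values was not tested. Macrophage markers lay above 0 in 15 of 15 (median log2 difference 0.212), with summed signals of 200221 to 279306 in placebo and 242012 to 374357 in NBC mice. Their score was highest in NBC mouse 13 (0.566), where the members' score was lowest of the NBC mice, and their part was not tested either. The skeletal muscle score was high in NBC mice 13, 11 and 5 (2.19, 2.50 and 2.41) and -0.842 in NBC mouse 9, the mouse with the highest score of the members. Mouse 9 was the highest of all mice for 10 members. For Oas1a, Oas2, Ifitm3, Irf7 and Ifi35 it was the lowest of the NBC mice. The part of muscle was not tested.

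**Figure D5:**
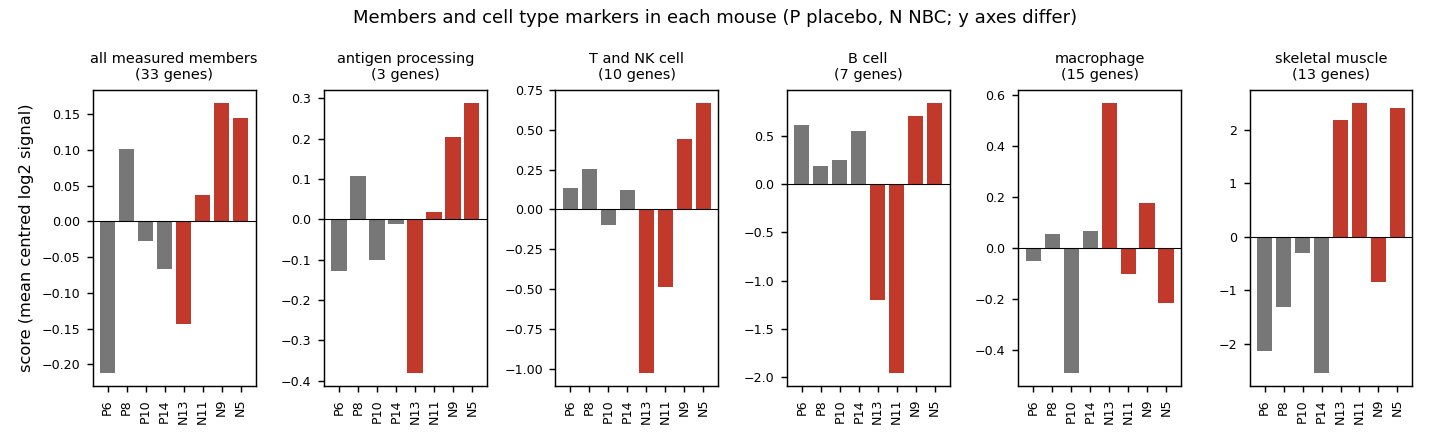
Bars give the score of each mouse (y axis, mean centred log2 signal, with a separate scale in each panel) for the members, the antigen processing genes and 4 lists of cell type markers. NBC mice 13 and 11 stand low for T and NK cell and B cell markers (B cell scores of -1.20 and -1.96), and NBC mice 9 and 5 stand high for these and for the members.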

How the data were processed

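The authors deposited linear signal intensities, 1 for each probe set on each array. They come from MAS5, per the submitters' processing notes, without a version. After trimming 2% from both ends, each array of the deposited intensities averaged 1500.01, so no further scaling was applied. MAS5 weighs perfect-match against mismatch probes, which leaves dim transcripts noisy. No scan batch was used.

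Signals were transformed as log2(signal + 26), 26 being the 10th percentile of all values, which understates differences of dim genes. Of 45101 probe sets, 64 controls were left out, and those with a mean at or above the median (a signal of 275) were kept: 22519 probe sets, with 11662 named genes. Names came from the platform annotation. Groups and mouse numbers came from the sample titles. NBC was compared with placebo with limma 3.58.1 (lmFit, eBayes) under R 4.3.3. P-values were adjusted over all kept probe sets (Benjamini-Hochberg) and called at 0.05. The fit was tested on simulated data. The number of arrays limits the precision.

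The members and lists were chosen with earlier results of these data known. Values in every mouse are given for the 14 members of smallest unadjusted p and for Ifit1, Irf9, Mx1 and Usp18 (18 in all), and from each pathway list up to 4 genes of smallest p could be named. Marker lists for dendritic cells, neutrophils and endothelium (scores -0.155, -0.716 and 0.0625, NBC minus placebo, all overlapping) were also measured, and Bst2 stands in the first of these too. Alternatives were other pseudocounts (1 and 100), quantile normalization, no filter, the mean of all probe sets of a gene, and leaving out each mouse.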

Additional observations from a re-analysis of the deposited data

Results flagged for a closer look

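Of 68 groups of 4 values tested (33 members and the score, in each group), 5 held a mouse whose gap to its nearest neighbour took up more of the group's range than Dixon's 95% critical value allows, where chance flags about 1 in 20. In NBC mice, Oas1a read 1496 in mouse 9 against 1901 to 1938 in the other 3, Eif2ak2 read 778 in mouse 5 against 976 to 996, and Ifih1 read 3080 in mouse 11 against 3451 to 3524. In placebo mice, both cases were mouse 8, with Gbp2 at 7182 against 5012 to 5307 and Rtp4 at 1975 against 1146 to 1227.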

How the results depend on the processing

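No member passed the adjusted threshold in the main fit or under any of the alternatives run. At an unadjusted p under 0.05 the count of members was 3 in the main fit, 1 (Oas1a) with all probe sets of a gene averaged, and 2 to 4 with 1 mouse left out. Members without overlap numbered 3, 1 (Ifit2) with probe sets averaged, 2 (Irf8 and Dhx58) after quantile normalization, and 3 to 6 with 1 mouse left out, where fewer mice make overlap rarer by construction. Probe sets past the adjusted threshold over all genes numbered 0 to 18 with 1 mouse left out, the 18 without NBC mouse 9, none of them a member. The members above 0 numbered 20 to 29, their median 0.0649 to 0.226 and the score difference 0.0488 to 0.167 with 1 mouse left out. Of 18 members given mouse by mouse, 13 kept their direction in all 12 alternatives other than dropping the filter, which changes no difference. With probe sets averaged Dhx58 turned to -0.054 and Psmb8 to -0.031. With 1 mouse left out, Usp18 ran from -0.321 to 0.266 (above 0 without NBC mouse 13), Ifit1 from -0.034 to 0.31 and Irf9 from -0.028 to 0.13 (both below 0 without NBC mouse 5). The cause was not tested, beyond the further probe sets that enter these averages (below the filter for Dhx58, above it for Psmb8). Oas1a had an unadjusted p under 0.05 in all 12 alternatives, Dhx58 in 11 and Irf8 in 5. Without the filter the 3 members were Dhx58, Oas1a and Mx1, with Irf8 at 0.0831, and 5.32% of all probe sets were under 0.05. No paired analysis was possible because no mouse number occurs in both groups. Signals near or below the filter limit, such as those of Mx1, Mx2 and Stat2, are the least precise.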

Other observations

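Oas1b, a relative of Oas1a that carries a truncating change in many laboratory strains, was singled out after its values were seen. Placebo mice 6, 8, 10 and 14 had signals of 250, 551, 372 and 234. NBC mice 13, 11, 9 and 5 had 73.4, 82.8, 40.4 and 221. All NBC mice lay below all placebo mice, although mouse 5 came close to placebo mouse 14. The log2 difference was -1.64 (SE 0.43, limma unadjusted p = 0.00527 and adjusted p = 0.709 in the fit without the filter), opposite in sign to the 0.48 of Oas1a. Its probe set lay below the brightness filter, and the 2 genes are similar in sequence, so that signal shared between them was not checked.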
